A study of Mus musculus with 4 samples.

Results

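The expression of 10 genes of the bone morphogenetic protein (BMP) pathway was followed in mouse embryonic stem cells given retinoic acid. They are the ligand genes Bmp4 and Bmp7, the inhibitor of DNA binding genes Id1, Id2, Id3 and Id4, the inhibitory Smad genes Smad6 and Smad7, and the homeobox genes Msx1 and Msx2. They were chosen by symbol, and all 10 were found among the 23420 genes counted. The cells were wild-type E14, a feeder-free line kept with leukemia inhibitory factor (LIF), and every library came from this 1 line. RNA sequencing libraries were made at 0 h, the control (2 libraries), and from cells given 1 µM ATRA (all-trans retinoic acid, the ligand of the retinoic acid receptors) for 24 h (2 libraries). ATRA and the time in culture differ between the groups together, and whether the 0 h cells received vehicle is not stated. Nothing says that replicates were separate cultures, so p-values reflect only how far these libraries differ, possibly for technical reasons.

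BMP ligands bind paired type I and type II receptor kinases, which phosphorylate Smad1, Smad5 and Smad9; these join Smad4 and enter the nucleus. The Id genes are immediate targets there. Their proteins pair with basic helix-loop-helix (bHLH) factors and keep them off DNA, which in stem cells grown with LIF holds back neural differentiation. Smad6 and Smad7 are induced by the same signal and shut it down, and Msx1 and Msx2 are homeobox repressors that BMPs induce in many embryonic tissues.

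Counts in genes ran from 21484812 to 31005634 in the controls and from 11086233 to 13337972 in the ATRA libraries. The ATRA libraries stood apart from each other along the GC content of transcripts. The median log2 ratio of replicate 2 to replicate 1 (CPM plus 0.5) was 0.84 for transcripts in the lowest GC decile and −1.12 in the highest. Between the groups, the median log2 fold change fell from 1.03 to −1.72 across the same deciles. Each member is therefore given from the plain fit and again after a correction for GC content fitted to each library, which removes any GC-related difference, technical or caused by the treatment. Fold changes are ATRA over control on the log2 scale with a standard error (SE), and a gene passed where edgeR's quasi-likelihood test gave an adjusted p under 0.05 over 14256 genes. Levels are CPM (counts scaled to a common library size by edgeR's TMM factors).

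Bmp4 fell and Msx1 rose with ATRA, and the other 8 members did not pass the test. Bmp4 was 7.31-fold lower and Msx1 9.88-fold higher. Over all genes tested 1.13% passed, 0.723% higher and 0.407% lower. After GC correction 5 of the 10 passed (Bmp4 lower, and Id2, Smad6, Msx1 and Msx2 higher), against 16.3% of all genes (8.56% of all higher and 7.7% of all lower). The members' median log2 fold change was 0.14, against −0.02 over all genes, and 0.39 against 0.02 after correction. In bulk RNA, fewer cells expressing a gene and less RNA per cell cannot be told apart.

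**Figure D1:**
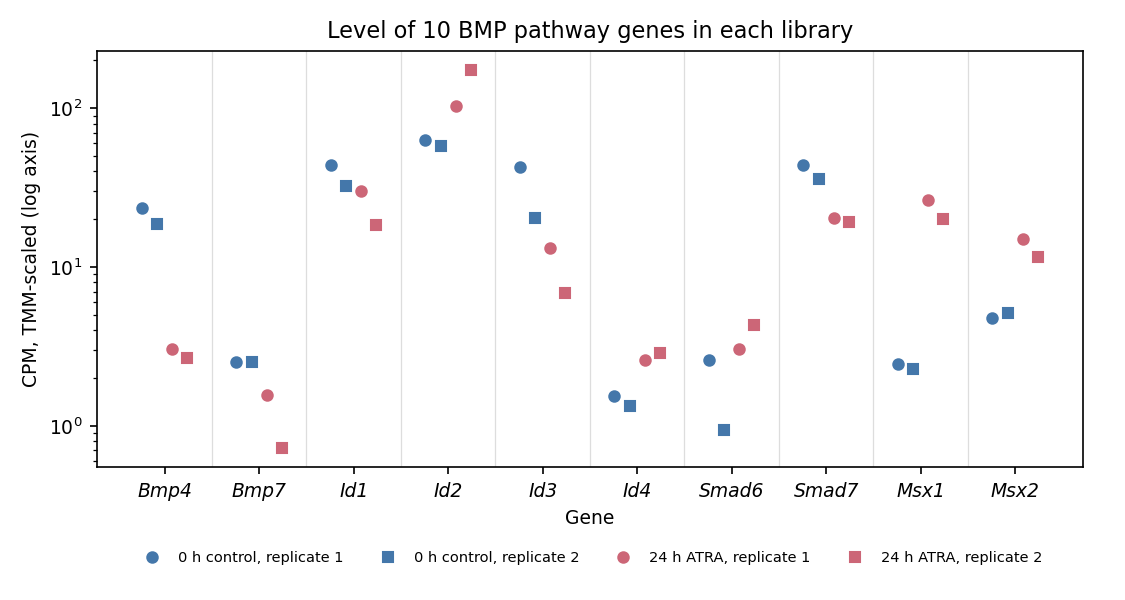
Level of each of the 10 genes in each library, in TMM-scaled CPM on a log axis, with a circle for replicate 1 and a square for replicate 2 (blue, 0 h control; red, 24 h ATRA). Bmp4 lies between 18.7 and 23.4 CPM in the controls and between 2.68 and 3.04 CPM with ATRA, and Msx1 moves the other way, from at most 2.44 to at least 20.1 CPM.

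The sequences upstream of these 2 genes are shown because they alone passed in both fits and moved in opposite directions. The windows are the 250 bases before the RefSeq start on GRCm38.p6, 5′ to 3′ on the gene's strand: Bmp4 at chr14:46390670-46390919 and Msx1 at chr5:37824586-37824835, both on the minus strand. Capitals mark E-boxes (CANNTG), the sites of the bHLH factors that Id proteins bind.
Bmp4: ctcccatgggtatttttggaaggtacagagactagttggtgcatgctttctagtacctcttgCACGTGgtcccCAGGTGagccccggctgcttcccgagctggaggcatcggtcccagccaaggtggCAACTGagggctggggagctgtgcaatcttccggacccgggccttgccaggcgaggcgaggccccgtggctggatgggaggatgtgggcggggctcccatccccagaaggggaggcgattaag
Msx1: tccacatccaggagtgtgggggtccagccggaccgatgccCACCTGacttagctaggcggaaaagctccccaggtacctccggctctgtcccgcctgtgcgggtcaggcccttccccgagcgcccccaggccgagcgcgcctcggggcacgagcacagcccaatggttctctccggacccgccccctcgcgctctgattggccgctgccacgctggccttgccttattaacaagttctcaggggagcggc
The Bmp4 window held 3 E-boxes and the Msx1 window 1. The window was matched for 7 members (Bmp4, Id2, Id3, Id4, Smad6, Msx1 and Msx2), of which 4 held an E-box, against 66.2% of 32851 such windows in RefSeq. On both strands, the GC-rich Smad element core GGCGCC was in 2 of the 7 (Id2 and Id4; 9.59% of all windows) and the Smad box CAGAC in 1 (Id3, 2 matches; 42.2%). The nuclear receptor half-sites AGGTCA (14.0% of all windows) and AGTTCA (11.8%) were in 0 of the 7. By the GENCODE annotation 250 bases of the Id3 and Msx2 windows and 161 bases of the Id2 window are exonic, so those windows are upstream of the RefSeq start only. Of the other 4 windows, Bmp4 and Msx1 held an E-box and Id4 held GGCGCC. A match describes letters in the window and is not a bound site. GC content was 63.2% in the Bmp4 window and 68.0% in the Msx1 window, against a median of 52.4% over all windows.

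Bmp4, which encodes a ligand that with LIF sustains self-renewal and later patterns mesoderm, occupies bases 46383520 to 46390669 of chromosome 14 in GRCm38 (GENCODE M21), on the minus strand. It had 23.4 and 18.7 CPM in control replicates 1 and 2, and 3.04 and 2.68 CPM in ATRA replicates 1 and 2. The groups did not overlap, and the ATRA libraries lay close together. The log2 fold change was −2.87 ± 0.36 (SE, n = 2 against 2, edgeR adjusted p = 0.0368), and −2.44 ± 0.23 after GC correction (adjusted p = 0.00954). Genes in the same GC decile had a median of −0.55. Without control replicate 1 the uncorrected value was −2.71 and its adjusted p 0.0945. After correction Bmp4 did not pass without control replicate 1 or 2 (adjusted p = 0.112 and 0.0888), where the lone control is assumed to vary like the ATRA libraries. On the opposite strand the gene Gm15217 shares 89 exonic bases with Bmp4. It had 12, 10, 2 and 0 counts in the 4 libraries, against 747, 419, 43 and 26 for Bmp4.

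Bmp7 encodes a related ligand that can pair with BMP4 and acts in kidney, eye and skeleton. It was scarce, at 2.51 and 2.54 CPM in the controls and 1.56 and 0.722 CPM with ATRA (22 and 7 counts). The groups did not overlap, but the ATRA libraries differed from each other by about as much as the higher of them differed from the controls. At −1.09 ± 0.47, its log2 fold change did not pass (edgeR adjusted p = 0.133). After GC correction it was −0.13 ± 0.32 (adjusted p = 0.798), with 1.66 and 1.78 CPM against 1.63 and 1.48. Without ATRA replicate 1, the uncorrected Bmp7 was at −1.81, and without ATRA replicate 2 it was at −0.68.

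None of the 4 Id genes passed in the uncorrected fit (0 of 4 by edgeR). There Id2 and Id3 had an unadjusted p under 0.05 and passed with DESeq2, beside 41.7% and 30% of all genes tested. Id1, the most used readout of BMP signalling, had 43.7 and 32.5 CPM in the controls and 30.3 and 18.4 CPM with ATRA. Its highest ATRA library was just under its lowest control. On the log2 scale Id1 differed by −0.65 ± 0.37 (edgeR adjusted p = 0.212), above the median of −0.90 in its GC decile. After correction it turned to 0.29 ± 0.18 (adjusted p = 0.281), with 30.4 and 23.7 CPM in the controls and 31.3 and 34.9 CPM with ATRA. Without ATRA replicate 1 the uncorrected Id1 was at −1.08, and without ATRA replicate 2 at −0.33.

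Id3, usually induced together with Id1, had 42.6 and 20.4 CPM in the controls and 13.1 and 6.91 CPM with ATRA. Its replicates differed about 2-fold in each group, and the groups did not overlap. On the log2 scale Id3 differed by −1.64 ± 0.51 (edgeR adjusted p = 0.0823). After GC correction it was −0.54 ± 0.34 (adjusted p = 0.294), and the groups overlapped, with control replicate 2 at 14.0 CPM and the ATRA libraries at 13.9 and 14.8 CPM. Control replicate 1, at 27.4 CPM, was then the one library apart, and without it the corrected value was 0.02. Leaving out control replicate 1 or 2 gave an uncorrected Id3 of −1.02 or −2.08. Leaving out ATRA replicate 1 or 2 gave −2.23 or −1.27. Id3 did not pass in any of these 4 fits (adjusted p from 0.103 to 0.568).

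Id2, the member of the family least tied to BMP signalling alone, had the highest CPM of the 10 genes both in the controls and with ATRA. It had 62.8 and 58.0 CPM in the controls and 103 and 175 CPM with ATRA. Both ATRA libraries were above both controls, and replicate 2 was the higher. Its log2 fold change was 1.20 ± 0.34 (edgeR adjusted p = 0.0767), against a median of 0.60 in its GC decile. After correction Id2 was at 0.58 ± 0.14 and passed narrowly (adjusted p = 0.0492). The corrected adjusted p was 0.273 without control replicate 1 and 0.327 without control replicate 2. Without ATRA replicate 1 the uncorrected value was 1.52, and without ATRA replicate 2 it was 0.78.

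Id4, which acts in neural progenitors and whose protein can oppose the other Id proteins, had 49, 30, 37 and 28 counts. It had 1.54 and 1.34 CPM in the controls and 2.62 and 2.89 CPM with ATRA. Its log2 fold change was 0.92 ± 0.38 (edgeR adjusted p = 0.121), close to the median of 0.82 in its GC decile. The corrected value was 0.14 ± 0.34 (adjusted p = 0.783), and its groups overlapped. On the opposite strand the non-coding genes A330033J07Rik and Gm49291 share 82 and 171 exonic bases with Id4; neither was analysed here.

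Scaled by transcript length, the summed level of the 4 Id genes was 103 and 73.8 RPKM (CPM per kilobase of transcript) in the controls and 89.2 and 111 RPKM with ATRA, so the groups overlapped. After GC correction the sum was 87.6 and 67.6 RPKM in the controls and 88.8 and 103.7 RPKM with ATRA. The groups then did not overlap, but only narrowly. Control replicate 1 (87.6) lay far closer to ATRA replicate 1 (88.8) than to control replicate 2 (67.6). Uncorrected, Id2 made up 30.9% and 39.9% of that sum in the controls and 58.5% and 80.2% with ATRA. Id3 made up 32.3% and 21.6%, then 11.5% and 4.88%. The make-up of the family thus moved toward Id2 in both ATRA libraries. After GC correction the share of Id2 was 45.0% and 52.8% in the controls and 56.6% and 59.4% with ATRA, a smaller difference in the same direction. Control replicate 2 (52.8%) then lay closer to ATRA replicate 1 (56.6%) than to control replicate 1 (45.0%).

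Smad7, whose protein blocks both BMP and TGF-beta receptors, is on chromosome 18 from 75367529 to 75395935 (plus strand). It had 43.9 and 36.0 CPM in the controls and 20.4 and 19.3 CPM with ATRA. The ATRA libraries were nearly equal and both below the controls. On the log2 scale Smad7 differed by −1.01 ± 0.30 (edgeR adjusted p = 0.0778), less negative than the median of −1.31 in its GC decile. After correction it was 0.49 ± 0.36 (adjusted p = 0.352), and the libraries spread to 25.5 and 23.2 CPM in the controls and 22.2 and 47.4 CPM with ATRA. Uncorrected, Smad7 passed when either ATRA library was left out (adjusted p = 0.000709 without replicate 1 and 0.00156 without replicate 2). The correction multiplied Smad7 in ATRA replicate 2 by 2.46 and in ATRA replicate 1 by 1.09. Leaving out ATRA replicate 1 gave a corrected 0.97, and leaving out ATRA replicate 2 gave −0.13, so its corrected direction rested on 1 library.

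Smad6, which acts mainly on BMP receptors and Smad1, was scarce, with 83, 21, 43 and 42 counts. It had 2.60 and 0.935 CPM in the controls and 3.04 and 4.33 CPM with ATRA. The controls differed by more than the higher control and the lower ATRA library did. The log2 fold change was 1.01 ± 0.56 (edgeR adjusted p = 0.205), where genes of the same GC decile had a median of −1.72. With a transcript of 60.8% GC, Smad6 moved more than any other member with the correction, to 3.14 ± 0.74 (adjusted p = 0.0472). The corrected ATRA libraries were then far apart, at 3.75 and 13.6 CPM, since the correction multiplied ATRA replicate 2 by 3.15. Leaving out ATRA replicate 2 or 1 gave corrected values of 2.01 and 3.87. The corrected Smad6 did not pass without control replicate 1 (adjusted p = 0.193) or control replicate 2 (0.230). The uncorrected value was 1.95 without control replicate 1 and 0.48 without control replicate 2.

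Msx1, on chromosome 5 from 37820485 to 37824583 (minus strand), marks the dorsal neural tube, limb bud and other sites of BMP signalling. It had 2.44 and 2.27 CPM in the controls and 26.6 and 20.1 CPM with ATRA. Replicates of a group differed little beside the distance between the groups. The log2 fold change was 3.30 ± 0.36 (edgeR adjusted p = 0.0329). Its transcript is 58.2% GC, in the GC decile whose median was −1.72, so Msx1 moved against the trend. The correction raised its value to 4.98 ± 0.37 (edgeR adjusted p = 0.00555). It multiplied Msx1 in ATRA replicate 1 by 1.13 and in ATRA replicate 2 by 2.75. The corrected ATRA libraries were then further apart, at 30.1 and 55.2 CPM. Without control replicate 1 the uncorrected value was 3.35 with an adjusted p of 0.0732. After correction Msx1 did not pass without control replicate 1 (adjusted p = 0.0593) or control replicate 2 (0.0639).

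Msx2, a close relative with overlapping sites of expression, had 4.76 and 5.17 CPM in the controls and 15.1 and 11.6 CPM with ATRA. Both ATRA libraries were above both controls. The log2 fold change was 1.43 ± 0.34 (edgeR adjusted p = 0.0665), and at 48.5% GC it changed little with the correction, to 1.26 ± 0.25, where it passed (adjusted p = 0.0343). The corrected adjusted p was 0.265 without control replicate 1 and 0.231 without control replicate 2. Per transcript length, Msx1 was below Msx2 in both controls and above it in both ATRA libraries.

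**Figure D2:**
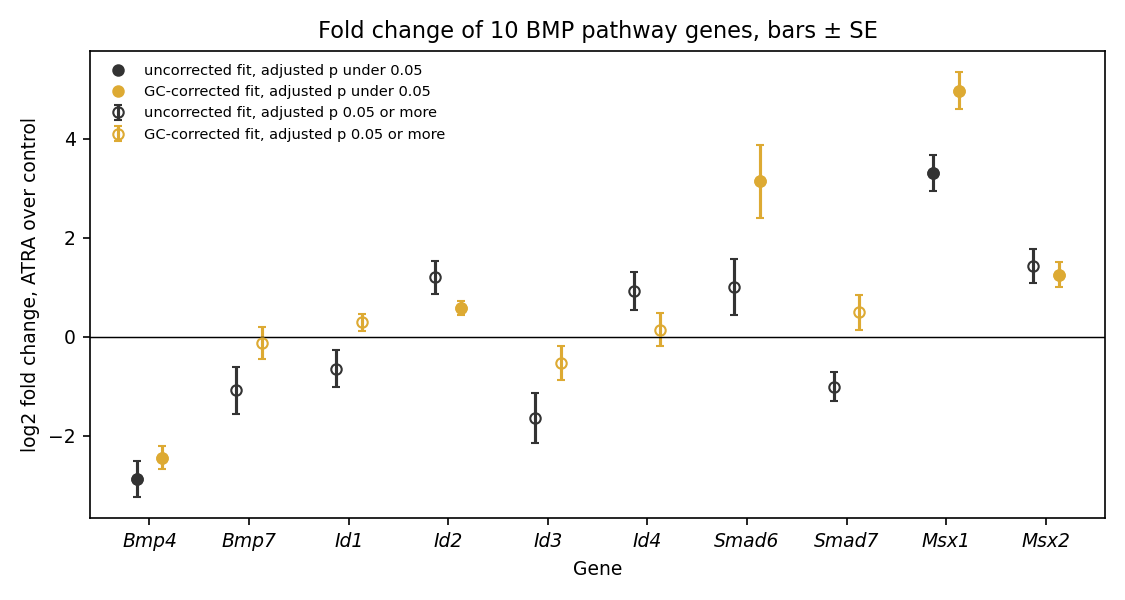
Log2 fold change of each gene, ATRA over control, with bars of ± 1 SE, from the uncorrected fit (black) and the GC-corrected fit (yellow); filled points have an adjusted p under 0.05. Bmp4 and Msx1 are filled in both fits, while Id1 (−0.65 to 0.29) and Smad7 (−1.01 to 0.49) cross 0 with the correction.

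All 10 members had libraries that did not overlap between the groups, 5 higher and 5 lower. Over all genes tested 40% were higher and 41.5% lower by that measure, so it does not set the members apart. The 3 members with the lowest GC content (Id4, Id2 and Msx2) were higher. Of the other 7, Bmp4, Bmp7, Id1, Id3 and Smad7 were lower, and Msx1 and Smad6 were higher.

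**Figure D3:**
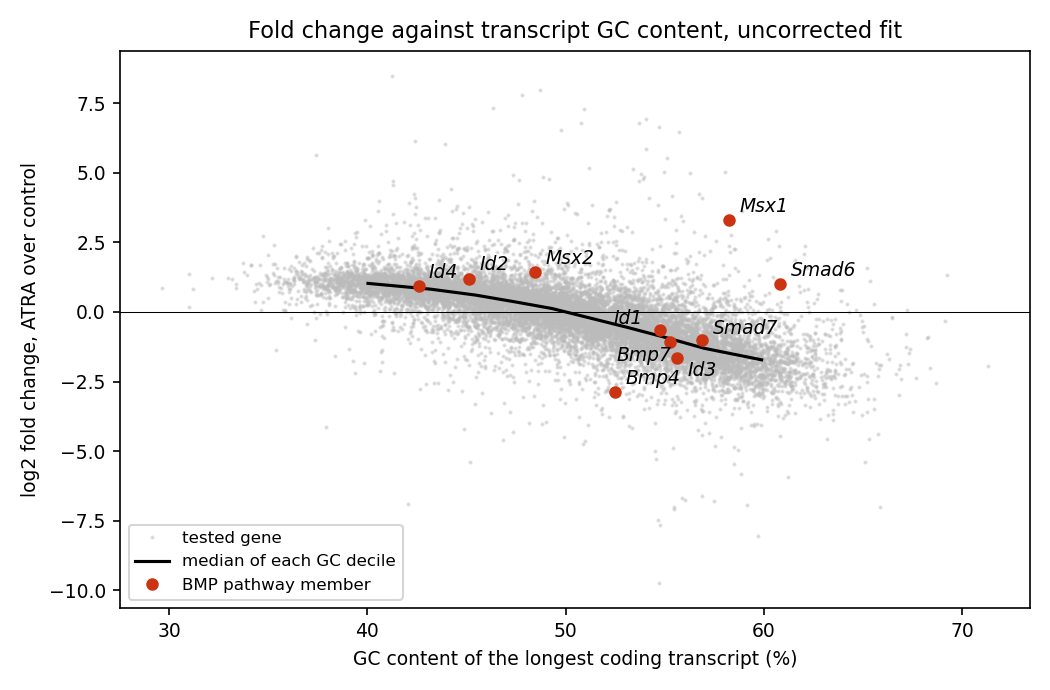
Uncorrected log2 fold change of every tested gene with a GC value (grey) against the GC content of its longest coding transcript in percent, with the median of each GC decile (black line) and the 10 members (red). Msx1, Smad6, Msx2 and Id2 lie above the line and Bmp4 and Id3 below it, while Id4, Bmp7, Id1 and Smad7 lie within 0.5 of it.

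Per transcript length and without GC correction, the controls ranked Id1 (32.8 ± 6.81 RPKM, mean ± SD, n = 2), Id2 (30.7 ± 1.72) and Id3 (24.6 ± 12.3) highest, and Id2 overlapped both of the others. Bmp4 (10.2 ± 1.63) and Smad7 (9.35 ± 1.31) followed and overlapped each other. Msx2 (2.02 ± 0.116) and Msx1 (1.22 ± 0.0633) came next and were apart, and Bmp7 (0.688 ± 0.00603), Smad6 (0.595 ± 0.397) and Id4 (0.373 ± 0.0367) were lowest, with Smad6 overlapping both of the others. With ATRA the order changed to Id2 (70.5 ± 26.0 RPKM), Id1 (21.0 ± 7.25), Msx1 (12.1 ± 2.36) and Id3 (7.85 ± 3.45), and each of these 4 was apart from the one before it. Msx2 (5.44 ± 1.03) overlapped with Id3 and with Smad7 (4.63 ± 0.177), and Bmp4 (1.39 ± 0.123) overlapped with Smad6 (1.24 ± 0.308). Id4 (0.715 ± 0.0501) and Bmp7 (0.310 ± 0.161) were lowest and apart. Msx1 thus moved from the seventh place to the third and Bmp4 from the fourth to the seventh. After GC correction Id2 was first and apart from Id1 already in the controls (37.5 ± 2.59 against 23.3 ± 4.10 RPKM). With ATRA the corrected Msx1 (22.1 ± 9.16) was again the third and overlapped Id1 (28.5 ± 2.15), and Bmp4 (1.62 ± 0.213) was the eighth and overlapped Smad6 (2.93 ± 2.35).

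Of 62 other genes of the pathway, 48 were tested and 1 passed, Tll1, which encodes a tolloid-like protease that frees BMPs by cutting chordin. It had 2.26 and 2.54 CPM in the controls and 14.8 and 26.5 CPM with ATRA. Its log2 fold change was 3.10 ± 0.43 (edgeR adjusted p = 0.0442), and 2.72 after GC correction (adjusted p = 0.0104). It did not pass with an older edgeR computation (adjusted p = 0.0584), without control replicate 1 (adjusted p = 0.117), or, after correction, without either control. With the correction 12 of the 48 passed, 10 higher and 2 lower, with a median of 0.38, against 16.3% and 0.02 over all genes. The uncorrected median was 0.36. An unadjusted p under 0.05 was found for 21 of the 48, close to the 41.7% of all genes tested, and 16 passed by DESeq2, against 30% of the same genes, so neither count sets the pathway apart.

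Other BMP ligands did not pass in either fit (0 of 5 tested by edgeR and DESeq2, 0 with an unadjusted p under 0.05 uncorrected), and Bmp8b, the one with most counts, was at −0.41 (0.25 after correction). Among 11 receptor and co-receptor genes 0 passed uncorrected (4 with an unadjusted p under 0.05, and 5 by DESeq2, where all genes had 41.7% and 30%). After correction the receptor genes Bmpr1a (0.58) and Acvr2a (0.52) and the co-receptor gene Rgma (2.64) passed as higher. The Rgma relative Rgmb (−1.34) passed as lower. Uncorrected, Acvr2a was at 1.53, Rgma at 0.86 and Rgmb at −1.07. Rgma had 3.13 and 2.00 CPM in the controls and 6.71 and 2.48 CPM with ATRA, so its groups overlapped. The correction multiplied Rgma in ATRA replicate 2 by 3.14. Bmpr1a, the most counted, was at 1.52 uncorrected (edgeR adjusted p = 0.0662). The 4 signal-carrying Smads did not pass in either fit. Uncorrected, 2 had an unadjusted p under 0.05 and 1 passed by DESeq2, beside 41.7% and 30% of all genes. Smad4, the shared partner, was at 0.38 uncorrected and 0.32 corrected.

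Of 11 extracellular antagonists and proteases tested, 1 passed uncorrected (Tll1), 7 had an unadjusted p under 0.05 and 5 passed by DESeq2. Over all genes tested these shares were 1.13%, 41.7% and 30%. Fst, which encodes the activin and BMP trap follistatin, did not pass uncorrected (edgeR adjusted p = 0.0522) and passed after correction at −2.41 (0.00339), and Bmper passed only after correction, at 2.38. Noggin (Nog) was at 0.04 and chordin (Chrd) at −2.35 uncorrected, and at 1.54 and −0.74 corrected; neither passed. Of 6 intracellular inhibitors 0 passed uncorrected (3 with an unadjusted p under 0.05, and 3 by DESeq2, beside 41.7% and 30% of all genes). After correction Smurf2 (0.50) and Ski (2.20) passed as higher, from 0.91 and 0.92 uncorrected. Skil, the inhibitor with most counts, was at 1.26 and 0.32. Of 8 other BMP-responsive genes tested 0 passed uncorrected (3 with an unadjusted p under 0.05, and 0 by DESeq2), and Dlx3 (2.41), Gata3 (1.27) and Zfp423 (1.42) rose after correction. The 3 bHLH partner genes of the Id proteins did not pass in either fit. Uncorrected, 2 had an unadjusted p under 0.05 and 2 passed by DESeq2, beside 41.7% and 30% of all genes. Tcf3, which encodes E2A, went from −2.34 (edgeR adjusted p = 0.0573) to −0.37 with the correction.

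**Figure D4:**
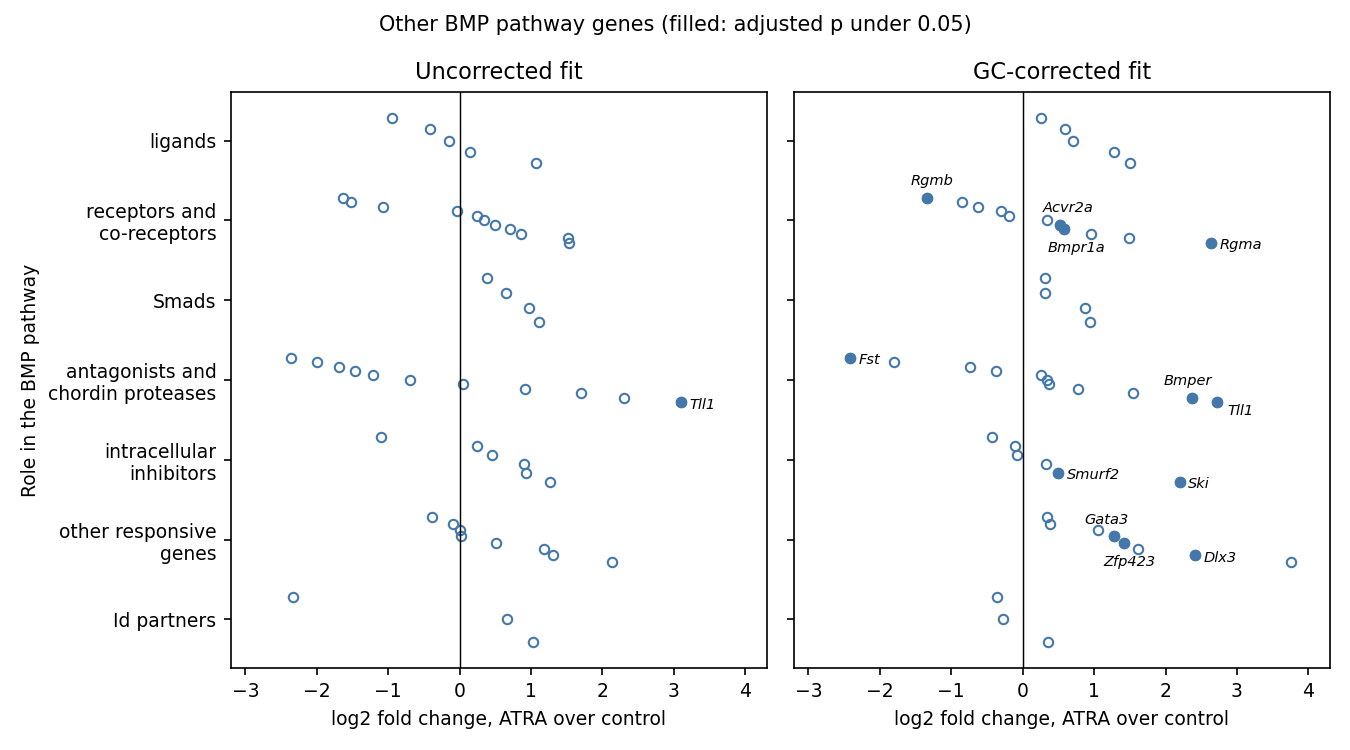
Log2 fold change, ATRA over control, of the 48 other pathway genes tested, grouped by role, in the uncorrected fit (left) and the GC-corrected fit (right); each circle is a gene and filled circles have an adjusted p under 0.05. Tll1 is the only filled circle on the left at 3.10, and 12 are filled on the right, with Fst (−2.41) and Rgmb (−1.34) on the lower side.

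Stem cell markers were present in every library, and several marker lists differed between the same groups. The 8 stem cell markers summed to 3619 and 3621 CPM in the controls and 1649 and 1302 CPM with ATRA; Zfp42, Esrrb and Utf1 fell. The 8 early mesoderm markers summed to 172 and 146 CPM and then to 18.8 and 23.2 CPM; T and Evx1 fell. The 8 neural progenitor markers summed to 271 and 228 CPM and then to 280.2 and 389.9 CPM; Sox1 rose. Endoderm, trophectoderm and fibroblast markers (8 each; 6, 7 and 7 tested) had 0 that passed by edgeR uncorrected, with sums of 502 to 512, 295 to 303 and 166 to 224 CPM in the controls and 360.5 to 413, 120.4 to 205 and 114 to 127 CPM with ATRA. The endoderm sum was mostly Sparc (476 and 485 CPM, then 359.8 and 279 CPM), while the median log2 fold change of the 6 tested was 1.53 and 4 of them had both ATRA libraries above both controls. The trophectoderm sum was mostly Krt18 (225 and 235 CPM, then 137 and 48.5 CPM), at −1.31 uncorrected and −0.16 corrected. Of the 7 trophectoderm markers tested, 3 had both ATRA libraries above both controls and 3 had both below. For the 7 fibroblast markers these counts were 2 and 3. The endoderm marker Gata4 had 1.91 and 2.05 CPM in the controls and 3.89 and 1.55 CPM with ATRA, so its uncorrected groups overlapped. The GC correction multiplied Gata4 in ATRA replicate 2 by 2.57. After GC correction 4 endoderm markers (Gata4, Gata6, Pdgfra and Dab2) and 2 trophectoderm markers (Cdx2 and Gata3) passed as higher. So did 2 fibroblast markers (Dcn and Fbn1), and 0 markers of these 3 lists passed as lower. In the same fit 6 of 8 stem cell markers and 3 of 7 early mesoderm markers tested fell. Of 5 neural progenitor markers tested, 2 (Pax6 and Sox1) rose. Over all genes tested 7.7% were lower and 8.56% higher in that fit, and 0.407% and 0.723% uncorrected. The stem cell markers Sox2 (−0.13 uncorrected) and Dppa5a (0.01) did not pass in either fit, and their groups overlapped. No marker of the 6 lists was at 0 in all 4 libraries. The part of these differences in the fall of Bmp4 and the rise of Msx1 was not tested.

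Among 12153 genes with a mean log2 CPM above 1, those nearest to Bmp4 over the 4 libraries were Nphs1, Apln and Fgf17, with root mean square differences of gene-centred log2 CPM of 0.0487, 0.0927 and 0.130. After GC correction Apln (−2.46) stayed close to the −2.44 of Bmp4, and Nphs1 (−1.53) and Fgf17 (−1.27) did not. Those nearest to Id1 were Arv1, 2510002D24Rik and Dnph1 (0.0280, 0.0426 and 0.0443); after correction they were at −0.63, −0.19 and 0.29, against 0.29 for Id1. With 4 libraries, such likeness is a description only.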

How the data were processed

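RNA sequencing libraries of 2 control and 2 ATRA samples were analysed from the raw counts per gene that the authors deposited. Per the submitters' processing notes, the tools were HTSeq 0.6.0, TopHat2 2.0.7, Cuffdiff 2.0.2 and Cufflinks 2.0.2, with the mm10 build; which of them made the counts, and whether strand was used, is not given in the sources used here. The dose follows the sample titles, since another label gives it in a larger unit. The 5 summary lines were left out. Among them, the line for reads assigned to no feature made up 63.4% to 66.2% of each library's total. Of 23420 genes, 21785 matched GENCODE M21 (GRCm38) by symbol and 1259 by an older symbol.

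Counts were filtered by group with filterByExpr, scaled by TMM and tested with edgeR 4.0.16 (robust quasi-likelihood, R 4.3.3), with Benjamini-Hochberg adjustment over 14256 genes; each SE comes from the F statistic. The GC correction fitted, in each library, a robust spline (5 degrees of freedom, MASS 7.3.60.0.1, prior count 2) of log2 CPM on the GC content of the longest coding transcript, using genes whose mean log2 CPM exceeded 1, and entered it as an offset. RPKM divides CPM by that transcript's length. A count of 3 corresponds to 0.0940 to 0.309 CPM, and no interval beyond counting and replicate error is implied. Alternatives were DESeq2 1.42.0 and its size factors, no filter, the replicate number as a block, each library left out and, chosen after seeing the data, an older edgeR computation.

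The members and lists were chosen with earlier results of these data known. The rule named all members, the genes of each pathway list that passed (otherwise the one with most counts) and the 3 genes nearest to Bmp4 and Id1 in profile; list genes that passed only after GC correction, Nog and Chrd were named after their values were seen.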

Additional observations from a re-analysis of the deposited data

How the results depend on the processing

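Bmp4 stayed negative (−3.03 to −2.28) and Msx1 positive (3.07 to 5.39) under all 15 alternatives, and each passed in 12. The 161 genes that passed became 603 with DESeq2 size factors (232 higher and 371 lower, against 103 and 58), 4282 with the DESeq2 Wald test, 86 with the older edgeR computation and 2317 with GC correction; leaving out 1 library gave 125 to 10289, and 25 to 6653 with GC correction (35 without control replicate 1 and 5027 without ATRA replicate 2). The 2 members that passed became 6 with the Wald test and 5 with GC correction; leaving out 1 library gave 0 to 7, and 0 to 6 with GC correction. The 0 by edgeR's quasi-likelihood test came without control replicate 1 (3 with an unadjusted p under 0.05) and, GC-corrected, without either control (5 each). The 1 pathway gene became 3 with DESeq2 size factors, 16 with the Wald test, 0 with the older edgeR computation (20 with an unadjusted p under 0.05), 2 without a filter and 12 with GC correction; leaving out 1 library gave 0 to 29, and 0 to 31 with GC correction (21 without ATRA replicate 2). The highest counts of all genes, of members and of pathway genes came from the same fits, those without ATRA replicate 1. There 14917 genes, 49 of them of the pathway lists, were tested. The Wald test covered 18882 genes, 61 of them of the pathway lists, and 30% of the genes tested with edgeR passed by it. Higher counts in these settings were thus not particular to the members or the pathway. The cause of these moves in the counts was not tested. Where a library was left out, the lone library was assumed to vary like the other group.

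Replicate numbers are shared by only 2 pairs, and same-numbered deviations correlated at 0.25 across genes (−0.07 after GC correction), so the numbers were not taken as pairs. With the replicate block, 4401 genes, 5 members and 17 pathway genes passed, and with the block and GC correction 2637, 4 and 11. The block added Id2 (adjusted p = 0.0256), Id3 (0.00423) and Msx2 (0.0203) to the members that passed in the edgeR fit; with GC correction as well, Id2 did not pass (0.0523).

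Id1 changed sign with GC correction (0.29), with the block and GC correction (0.30) and, GC-corrected, with each library left out (0.47 and 0.11 without control replicates 1 and 2, 0.36 and 0.20 without ATRA replicates 1 and 2). Smad7 did so with GC correction (0.49) and with the block as well (0.41); GC-corrected with 1 library left out it ran from −0.13 to 0.97 (0.55 and 0.42 without control replicates 1 and 2). GC-corrected, Id3 was at 0.019 without control replicate 1 and Id4 at −0.16 without ATRA replicate 1. Bmp7, Smad6 and Id4 had under 100 counts in every library.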
